A study of Mus musculus with 12 samples.

Results

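The 45 genes described here encode the proteins that license DNA replication origins, start replication and run the replication fork. They were taken as a fixed list of symbols, and all 45 were found among the 56860 named genes of the count table and passed the filter on low counts, which left 16600 genes for testing. Total RNA of primary mouse oligodendrocytes (OLs) was sequenced in 12 libraries, 6 treated with siEgr2 and 6 with the scrambled control siNC. Cells positive for the O4 antigen, a marker of immature OLs, came from the cortex of C57BL/6J pups of postnatal day 6 to 7, while the labels give the medial prefrontal cortex as tissue. Cells of both groups were switched from a medium with PDGF-AA to a differentiation medium before treatment, and were harvested at 48 h. Egr2 encodes a zinc finger transcription factor, and the comparison asked which transcripts differ when OLs receive siEgr2 in place of siNC.

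In a dividing cell, each origin is first bound by the origin recognition complex, and CDC6 and CDT1 then load the ring of MCM2 to MCM7 around the DNA. At the start of S phase, cyclin E with its kinase and CDC7 with DBF4 turn this ring into an active helicase with CDC45 and the GINS complex, and DNA polymerases, the sliding clamp PCNA and its loader copy the strands. OL precursors divide in response to PDGF-AA, and they leave the cell cycle as they differentiate. Many of the genes for these proteins are transcribed at the border of G1 and S phase by E2F factors.

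Levels are CPM values, the counts of a gene brought to a common library total, after scaling by trimmed mean of M values (TMM), and each group held 6 libraries. Differences are log2 fold changes of siEgr2 over siNC with their standard error (SE), and p-values come from the quasi-likelihood test of edgeR, adjusted over all 16600 genes tested by the method of Benjamini and Hochberg. A gene is said to have risen or fallen at an adjusted p under 0.05, and is called when its log2 fold change also exceeded 0.5 in size.

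All libraries expressed the defining genes of OLs, with a summed level of the 9 OL markers of 8805 to 9552 CPM in siNC and 8646 to 9077 CPM in siEgr2 (two-sided exact permutation test, p = 0.0563). Egr2 itself, the targeted gene, lay at 3.89 to 7.06 CPM in siNC and 2.22 to 4.86 CPM in siEgr2, so that the groups overlapped, and its log2 fold change of -0.51 (SE 0.21) had an adjusted p of 0.0981. With libraries scaled by their total alone it was -0.70 with an adjusted p of 0.0144 and Egr2 was called. The siEgr2 libraries held fewer counts on genes, 8034251 to 16683677 against 28682946 to 39383014, and more of them fell on the ribosomal RNA gene Rn18s-rs5, 10.5% to 16.5% against 0.142% to 1.05% (exact permutation test, p = 0.00216 for each). Mitochondrial genes took 2.98% to 3.52% of the counts in siNC and 2.37% to 3.02% in siEgr2 (exact permutation test, p = 0.00433). Depth and these shares therefore cannot be told apart from the treatment. For depth and the ribosomal RNA share, no library of either group fell in the range of the other. Nothing in the sources used here says whether the replicates were separate cultures, so p-values measure the spread between these libraries, which may be technical.

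The replication genes as a group lay higher in siEgr2. Their summed level was 1576 to 1737 CPM in siNC, with a median of 1668, and 2019 to 2217 CPM in siEgr2, with a median of 2067. Before any scaling they took 0.168% to 0.184% of all counts in siNC and 0.185% to 0.207% in siEgr2, so that the groups did not overlap on either scale. In bulk RNA, more cells in S phase and more of these transcripts per cell cannot be told apart.

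Of the 45 genes, 29 rose and none fell, where 8.57% of all genes tested rose and 11.3% fell. With libraries scaled by their total alone, 12 of the 45 rose and 0 were called, where 3.04% of all genes rose and 1.43% were called higher. The 4 called genes were Rfc4, Ccne2, Cdt1 and Pole, and 2.63% of all genes tested were called higher and 5.08% lower. In 15 of the 45 genes, the lowest siEgr2 library exceeded the highest siNC library, which was so for 4.15% of all genes tested, and in none did the highest siEgr2 library stay under the lowest siNC library. The log2 fold change was above 0 for all 45 genes on the TMM scale, where 50.9% of all genes tested were above 0, and for 38 when libraries were scaled by their total alone, which put Orc1, Orc6, Gins4, Rfc1, Rfc2, Rpa1 and Rpa3 below 0. The median over the 45 genes was 0.34, and over all genes tested it was 0.0046, with quartiles of -0.17 and 0.17. Scaling by the library total alone moved the median of all genes to -0.18 and that of the replication genes to 0.15, a shift that this scaling gives to all genes nearly alike. The differences were small in size, from 0.07 for Rfc2 to 0.92 for Fen1, and Fen1 did not pass the test.

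**Figure D1:**
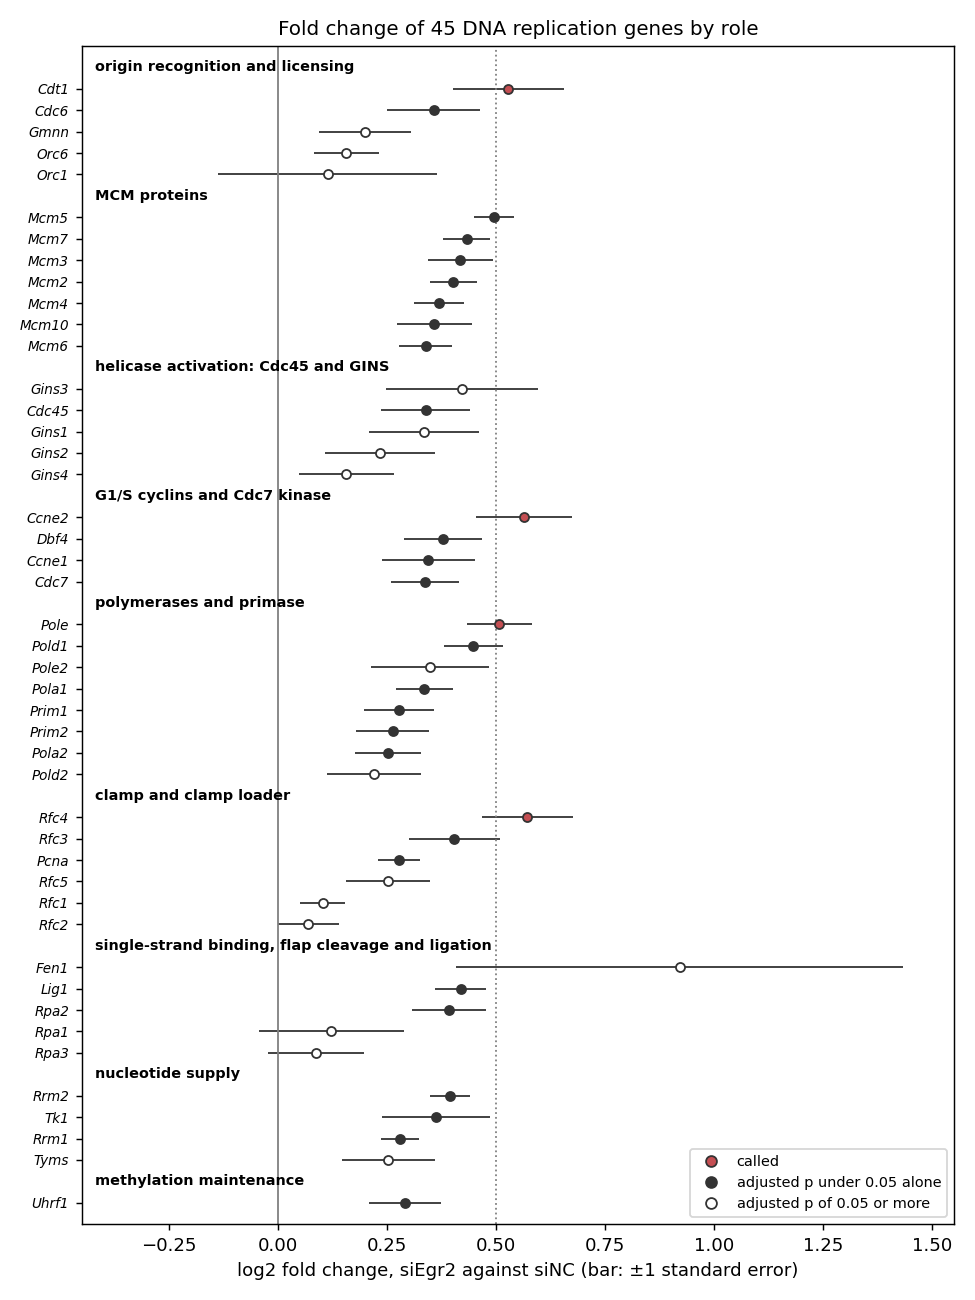
Log2 fold change of each of the 45 replication genes (siEgr2 over siNC, TMM scale, 6 libraries per group), grouped by role, with error bars of 1 SE, a solid line at 0 and a dotted line at 0.5, where red points are called, black points passed only the adjusted p and white points did not pass. All 45 points lie above 0, where scaling by the library total alone puts 7 of them below 0, and 29 passed an adjusted p of 0.05.

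**Figure D2:**
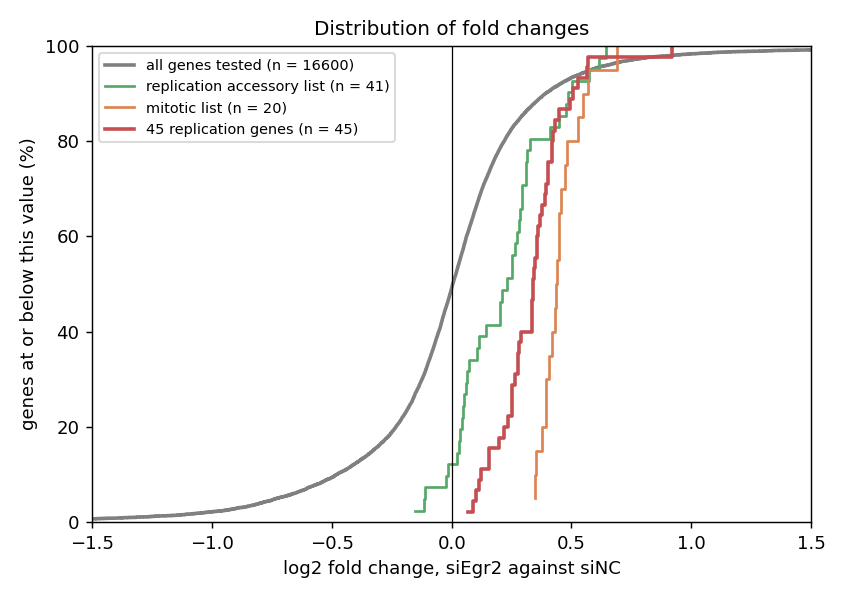
Cumulative share of genes (%) by log2 fold change of siEgr2 over siNC on the TMM scale for the 45 replication genes, 41 replication accessory genes, 20 mitotic genes and all 16600 genes tested. The curves of the 3 lists lie to the right of that of all genes except at the top, and the medians were 0.34, 0.23, 0.44 and 0.0046.

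The promoters of the replication genes were searched for letters bound by cell cycle factors. RefSeq promoters, from 250 bases before to 50 bases after the start on GRCm38.p6, were found for 36 of the 45 genes and for 11241 of the genes tested. None was found for Gmnn, Mcm4, Gins1, Gins2, Gins4, Ccne2, Prim2, Pole and Rfc2. The E2F letters TTTCCCGC, TTTCGCGC, TTTGCCGC and TTTGGCGC were searched on both strands, where matches may overlap each other. They stood in the promoters of 14 of the 36 replication genes (38.9%), of 1 of 17 genes of a list of genes that act in mitosis (5.88%) and of 529 of all 11241 genes (4.71%). Counted over single promoters of this length, the share was 32.6% for the replication genes and 3.88% for all genes tested. The 14 genes were Orc1, Cdc6, Cdt1, Mcm3, Mcm5, Mcm6, Mcm7, Gins3, Pola1, Pold1, Pole2, Rfc3, Lig1 and Uhrf1. Of the 20 copies, 12 lay between 100 bases before and 50 bases after the start. The promoters of 4 genes are printed 5′ to 3′, those of Mcm5 and Mcm6, the genes of the MCM ring with the largest and the smallest rise, of Mcm3, with matches after its start, and of the called gene Cdt1. All 4 were among the genes with E2F letters. Of the other called genes, Rfc4 had a promoter without E2F letters, and Ccne2 and Pole had no promoter sequence. Capitals mark the E2F letters, which overlap in Mcm5 and Mcm6.
Mcm5, chr8:75109259-75109558, plus strand: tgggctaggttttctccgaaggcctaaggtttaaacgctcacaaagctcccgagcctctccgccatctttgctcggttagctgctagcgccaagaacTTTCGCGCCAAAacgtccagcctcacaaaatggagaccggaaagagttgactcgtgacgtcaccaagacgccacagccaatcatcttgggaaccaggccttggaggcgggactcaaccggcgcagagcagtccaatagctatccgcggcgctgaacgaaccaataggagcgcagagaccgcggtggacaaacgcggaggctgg
Mcm6, chr1:128359656-128359955, minus strand: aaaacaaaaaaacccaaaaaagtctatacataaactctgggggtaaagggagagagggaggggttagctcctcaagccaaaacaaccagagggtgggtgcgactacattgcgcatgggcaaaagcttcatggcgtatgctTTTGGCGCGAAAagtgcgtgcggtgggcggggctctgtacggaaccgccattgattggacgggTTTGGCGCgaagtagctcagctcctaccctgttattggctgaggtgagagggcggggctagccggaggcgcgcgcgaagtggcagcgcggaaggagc
Mcm3, chr1:20820263-20820562, minus strand: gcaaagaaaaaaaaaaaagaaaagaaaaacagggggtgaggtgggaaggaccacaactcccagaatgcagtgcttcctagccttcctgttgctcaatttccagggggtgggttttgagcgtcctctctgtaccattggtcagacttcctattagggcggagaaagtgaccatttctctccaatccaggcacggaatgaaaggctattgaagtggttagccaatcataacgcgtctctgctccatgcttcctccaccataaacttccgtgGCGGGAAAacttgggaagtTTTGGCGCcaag
Cdt1, chr8:122567765-122568064, plus strand: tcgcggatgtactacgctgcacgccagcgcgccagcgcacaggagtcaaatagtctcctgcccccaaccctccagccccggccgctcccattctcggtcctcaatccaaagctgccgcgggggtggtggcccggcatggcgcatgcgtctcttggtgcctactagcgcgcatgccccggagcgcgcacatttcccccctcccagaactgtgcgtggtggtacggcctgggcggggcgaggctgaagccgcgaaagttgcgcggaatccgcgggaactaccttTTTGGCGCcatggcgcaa
In Mcm5 the matches began 153 and 149 bases before the start, in Mcm6 110, 106 and 47 bases before it, in Mcm3 at bases 20 and 39 and in Cdt1 at base 33 of the transcribed side, with the start counted as base 1. Mcm6 had the most copies of the 4, 3, but those at 110 and 106 bases overlap, so copies are not counts of separate sites. Whether the number of copies went with the size of the rise was not tested. E2F letters stood in 11 of 25 genes that rose and had a promoter sequence (44.0%) and in 3 of 11 of the others (27.3%), a difference that was not tested. A match is a description of letters and not of a bound site.

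**Figure D3:**
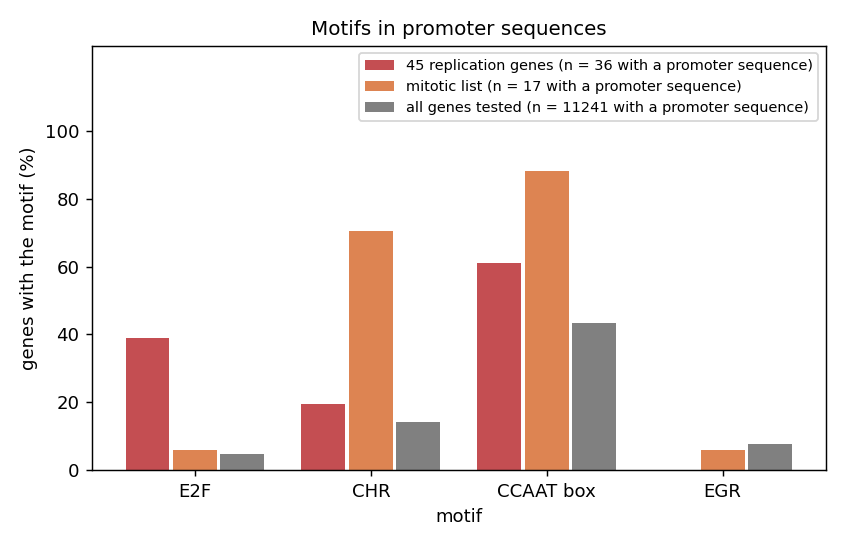
Share of genes (%) whose RefSeq promoter holds each motif, for the replication genes (n = 36), the mitotic list (n = 17) and all genes tested (n = 11241). E2F letters stand in 38.9% of the replication genes and 5.88% of the mitotic list, and the CHR letters in 19.4% and 70.6%.

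The CHR element (TTTGAA) and the CCAAT box (CCAAT), letters known from promoters of genes that act in mitosis, showed the opposite order. CHR letters stood in 7 of 36 replication genes (19.4%), in 12 of 17 mitotic genes (70.6%) and in 14.2% of all genes tested with a promoter. CCAAT letters stood in 22 of 36 (61.1%), in 15 of 17 (88.2%) and in 43.3%. The binding letters of the EGR family, to which Egr2 belongs (GCGTGGGCG and GCGGGGGCG, both strands), stood in none of the 36 replication genes, in 1 of 17 mitotic genes and in 7.84% of all genes, which says only that these letters are not in these windows.

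All 7 MCM genes rose on the TMM scale, and all but Mcm6 and Mcm10 also passed with libraries scaled by their total alone. MCM2 to MCM7 form the ring that unwinds DNA ahead of the fork, and its 6 genes had log2 fold changes between 0.34 and 0.49 and no overlap between the groups in any of them. Mcm5 had the largest rise, from 69.4 CPM at the lowest, 77.5 at the median and 79.95 at the highest in siNC to 104.3, 105.8 and 115.3 CPM in siEgr2. The groups were thus well apart, and the log2 fold change was 0.49 (SE 0.046, adjusted p = 1.46e-06), just under the threshold for a call. Mcm6 had the smallest, from 74.4, 85.5 and 93.6 CPM to 99.6, 106.2 and 112.8 CPM, a log2 fold change of 0.34 (SE 0.060, adjusted p = 0.000728). Even there the lowest siEgr2 library lay above the highest siNC library. The other 4 genes of the ring rose by 0.37 (Mcm4), 0.40 (Mcm2), 0.42 (Mcm3) and 0.43 (Mcm7). Per kilobase of exon, the 6 genes lay between 10.4 and 20.1 CPM in siNC. Mcm10, which encodes a separate protein that helps to start the helicase, lay far lower at 2.07 CPM per kilobase and rose by 0.36, with 5 of 6 siEgr2 libraries above the highest siNC library.

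Of the 5 genes that mark origins and place the ring on DNA, 2 rose. Cdt1, the loading factor of the MCM ring, was called, with 12.5, 16.6 and 19.5 CPM (lowest, median and highest) in siNC and 16.7, 23.2 and 29.5 CPM in siEgr2, a log2 fold change of 0.53 (SE 0.13, adjusted p = 0.00743). The groups overlapped in 1 library, since siEgr2 replicate 5 lay inside the siNC range. Without siNC replicate 4, siEgr2 replicate 4 or siEgr2 replicate 6, the log2 fold change of Cdt1 was 0.46, 0.49 and 0.45 and the call was lost. Cdc6, which brings CDT1 and the ring to the origin, rose by 0.36 (SE 0.11, adjusted p = 0.0263). Cdc6 did not pass when libraries were scaled by their total alone, whereas Cdt1 did. The subunits of the origin recognition complex on the list did not pass the test: Orc6 had a log2 fold change of 0.16 (adjusted p = 0.162) and Orc1 of 0.11 (adjusted p = 0.802). Orc1 was the lowest of the 45 genes per kilobase, with 1.31, 2.42 and 3.13 CPM in siNC and 1.67, 2.41 and 3.70 CPM in siEgr2, values that rested on as few as 13 counts in a library. Both groups of Orc1 covered much the same range, and its log2 fold change fell below 0 without siNC replicate 5 or siEgr2 replicate 6 (-0.0051 and -0.019). Gmnn, which encodes geminin, the inhibitor of CDT1, had a log2 fold change of 0.20 (adjusted p = 0.214).

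All 4 genes of the kinases that fire the origins rose on the TMM scale, and with libraries scaled by their total alone Ccne2 passed (adjusted p = 0.0136) while Ccne1, Cdc7 and Dbf4 did not (0.273, 0.144 and 0.118). Ccne2, which encodes cyclin E2, was called with the largest change of these, from 12.4, 13.6 and 17.9 CPM in siNC to 17.5, 20.7 and 24.4 CPM in siEgr2, a log2 fold change of 0.56 (SE 0.11, adjusted p = 0.0015). Only the lowest siEgr2 library, replicate 6, lay inside the siNC range. Dbf4, the activating partner of CDC7, and Ccne1, the gene of cyclin E1, rose by 0.38 and 0.34. The smallest rise was in the kinase gene Cdc7, from 21.4, 24.2 and 26.1 CPM to 26.1, 30.7 and 33.3 CPM, a log2 fold change of 0.34 (SE 0.078, adjusted p = 0.00562). The Cdc7 groups overlapped only at their edges.

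Of the other parts of the active helicase, 1 of 5 genes passed the test. Cdc45, which ties the ring and the GINS complex together, rose by 0.34 (SE 0.10, adjusted p = 0.0274). Cdc45 did not pass when libraries were scaled by their total alone. The genes of the GINS complex all had log2 fold changes above 0 on the TMM scale but wide errors, with 0.33 for Gins1 (adjusted p = 0.0729), 0.23 for Gins2 (adjusted p = 0.222), 0.42 for Gins3 (adjusted p = 0.103) and 0.16 for Gins4 (adjusted p = 0.349). Gins3 had the highest of these with 5.39, 6.18 and 7.56 CPM in siNC and 4.64, 8.48 and 11.96 CPM in siEgr2. A single siEgr2 library, replicate 2, lay below all siNC libraries, and without it the log2 fold change of Gins3 was 0.54 with an adjusted p of 0.0117, which made it a called gene. Gins4 had the lowest, with 19.9, 22.0 and 23.8 CPM in siNC and 17.7, 24.99 and 29.8 CPM in siEgr2, and its siEgr2 libraries lay on both sides of the siNC range. Scaled by the library total alone, Gins4 had a log2 fold change of -0.031.

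Genes of the replicative polymerases rose in 6 of 8 cases on the TMM scale. Pole and Pold1 also passed with libraries scaled by their total alone, while Pola1, Pola2, Prim1 and Prim2 did not. Pole, the catalytic subunit of polymerase epsilon, which copies the leading strand, was called, with 28.7, 33.7 and 39.7 CPM in siNC and 43.6, 46.9 and 50.6 CPM in siEgr2, without overlap, and a log2 fold change of 0.51 (SE 0.074, adjusted p = 0.000134). It passed the threshold of 0.5 by a narrow margin, and without siNC replicates 1 or 5 or siEgr2 replicates 1 or 4 it was 0.47, 0.48, 0.49 and 0.49 and no longer called. Pold1, the catalytic subunit of polymerase delta, which copies the lagging strand, rose by 0.45 (SE 0.068, adjusted p = 0.000189), again without overlap. Pola1, the catalytic subunit of the polymerase that starts each new strand, rose by 0.34 without overlap, and its partners Prim1, Prim2 and Pola2 rose by 0.28, 0.26 and 0.25, each with an overlap between the groups. Pole2 and Pold2, accessory subunits of polymerases epsilon and delta, had log2 fold changes of 0.35 (adjusted p = 0.0837) and 0.22 (adjusted p = 0.172). Pold2 had the smallest change of the 8 genes, with 22.8, 31.8 and 34.4 CPM in siNC and 30.1, 34.7 and 40.0 CPM in siEgr2, where 3 of 6 siEgr2 libraries lay within the siNC range. Whether catalytic and accessory subunits differed in their change was not tested.

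PCNA, the ring that holds the polymerases on DNA, had the most abundant transcript of the list per kilobase, at 62.3 CPM per kilobase in siNC. Its level was 131.3, 150.8 and 160.3 CPM in siNC and 169.6, 181.3 and 188.3 CPM in siEgr2, without overlap, a log2 fold change of 0.28 (SE 0.048, adjusted p = 0.000602). Pcna did not pass when libraries were scaled by their total alone. The 5 subunits of replication factor C, which opens this ring and loads it, rose in 2 cases on the TMM scale. Rfc4 also passed with libraries scaled by their total alone, while Rfc3 did not. Rfc4 had the largest log2 fold change of all called genes of the list, 0.57 (SE 0.10, adjusted p = 0.000922), with 11.7, 12.7 and 14.6 CPM in siNC and 15.0, 19.2 and 22.9 CPM in siEgr2, and no overlap. Rfc3 rose by 0.40 (adjusted p = 0.0114), Rfc5 had 0.25 (adjusted p = 0.0786) and Rfc1, the large subunit, 0.10 (adjusted p = 0.18). Rfc2 had the smallest log2 fold change of all 45 genes, 0.07 (SE 0.071, adjusted p = 0.545), with 37.4, 39.7 and 43.8 CPM in siNC and 37.5, 40.8 and 48.4 CPM in siEgr2. Both groups of Rfc2 began at nearly the same level, and scaling by the library total alone gave -0.11 for Rfc2 and -0.080 for Rfc1.

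**Figure D4:**
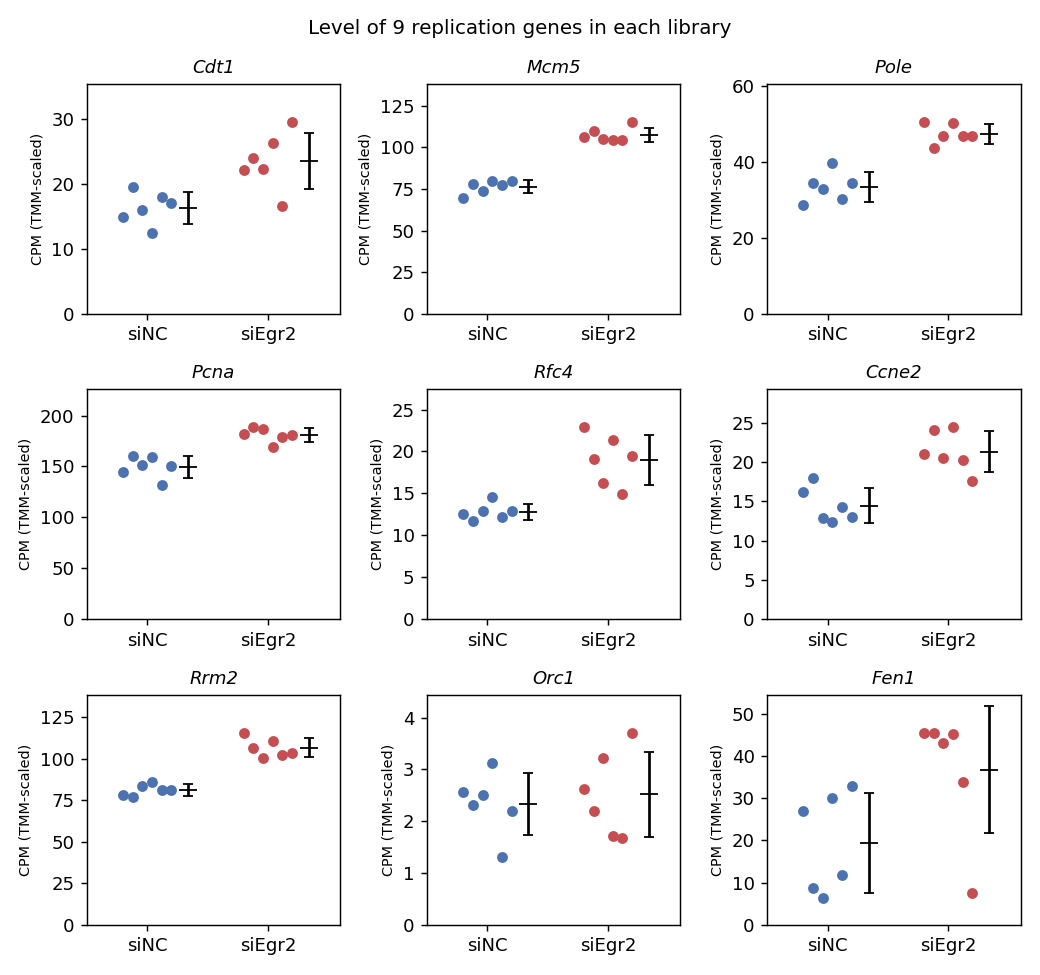
Level (TMM-scaled CPM, axis from 0) of 9 replication genes in each of the 6 siNC and 6 siEgr2 libraries, with the mean and error bars of 1 SD beside each group. The groups are apart for Mcm5, Pole, Pcna, Rfc4 and Rrm2, overlap by 1 library for Cdt1 and Ccne2, and overlap widely for Orc1 and Fen1.

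The genes that protect single strands and join the fragments of the lagging strand held the widest spread of values. Fen1, the nuclease that trims the flaps of these fragments, had the largest log2 fold change of all 45 genes, 0.92, but an SE of 0.51 and an adjusted p of 0.251. In siNC its replicates 1 to 6 had 27.0, 8.67, 6.35, 30.0, 11.7 and 33.0 CPM, and in siEgr2 they had 45.5, 45.4, 43.1, 45.3, 33.8 and 7.41 CPM. Libraries of either group fell into high and low values, and siEgr2 replicate 6 lay below 5 of the 6 siNC libraries. The antisense gene Gm10143 covers most of Fen1 in the annotation, at 1.56 to 4.30 CPM in siNC and 1.54 to 4.64 CPM in siEgr2. The protein-coding gene Tmem258 shares bases with one end of Fen1 on the other strand, with means of 50.4 and 46.9 CPM in siNC and siEgr2. The strand setting of the counting is not given in the sources used here, so reads of these genes cannot be told apart where they overlap. Lig1, the ligase that seals the fragments, rose by 0.42 (SE 0.059, adjusted p = 8.6e-05), from 50.2 to 58.1 CPM in siNC to 64.8 to 79.3 CPM in siEgr2, without overlap.

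The 3 subunits of replication protein A, which coats single strands, gave different values. Rpa2 rose by 0.39 (SE 0.085, adjusted p = 0.00345) without overlap, from 21.6 to 28.2 CPM in siNC to 29.1 to 38.7 CPM in siEgr2. Rpa2 did not pass when libraries were scaled by their total alone. Rpa1, the largest subunit, had 61.9, 65.9 and 99.2 CPM in siNC and 62.5, 70.3 and 109.6 CPM in siEgr2, a log2 fold change of 0.12 (SE 0.17, adjusted p = 0.672), and -0.0029 without siEgr2 replicate 2. Rpa3, the smallest subunit, had 9.96, 13.1 and 14.6 CPM in siNC and 11.1, 13.6 and 15.9 CPM in siEgr2, a log2 fold change of 0.09 (SE 0.11, adjusted p = 0.638). For Rpa1 and Rpa3 the groups covered almost the same range.

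Of 4 genes of nucleotide supply, 3 rose on the TMM scale. Rrm2 also passed with libraries scaled by their total alone, while Rrm1 and Tk1 did not. Ribonucleotide reductase makes deoxynucleotides, and its small subunit Rrm2 had 76.9, 80.9 and 86.0 CPM in siNC and 100.5, 105.0 and 115.4 CPM in siEgr2, a log2 fold change of 0.39 (SE 0.046, adjusted p = 1.47e-05). The large subunit Rrm1 rose by 0.28 (adjusted p = 0.000212), and neither subunit had overlapping groups. Tk1, thymidine kinase, rose by 0.36 with an adjusted p of 0.0491, near the threshold. Tyms, thymidylate synthase, had 15.4, 16.2 and 17.8 CPM in siNC and 13.4, 20.4 and 22.7 CPM in siEgr2, a log2 fold change of 0.25 (adjusted p = 0.109), since 1 siEgr2 library lay below the siNC range and 5 above it. Uhrf1, which brings the maintenance DNA methyltransferase to newly copied DNA, had 51.0, 62.2 and 69.9 CPM in siNC and 66.6, 75.9 and 82.3 CPM in siEgr2 and rose by 0.29 (SE 0.082, adjusted p = 0.0184). Uhrf1 did not pass when libraries were scaled by their total alone.

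**Figure D5:**
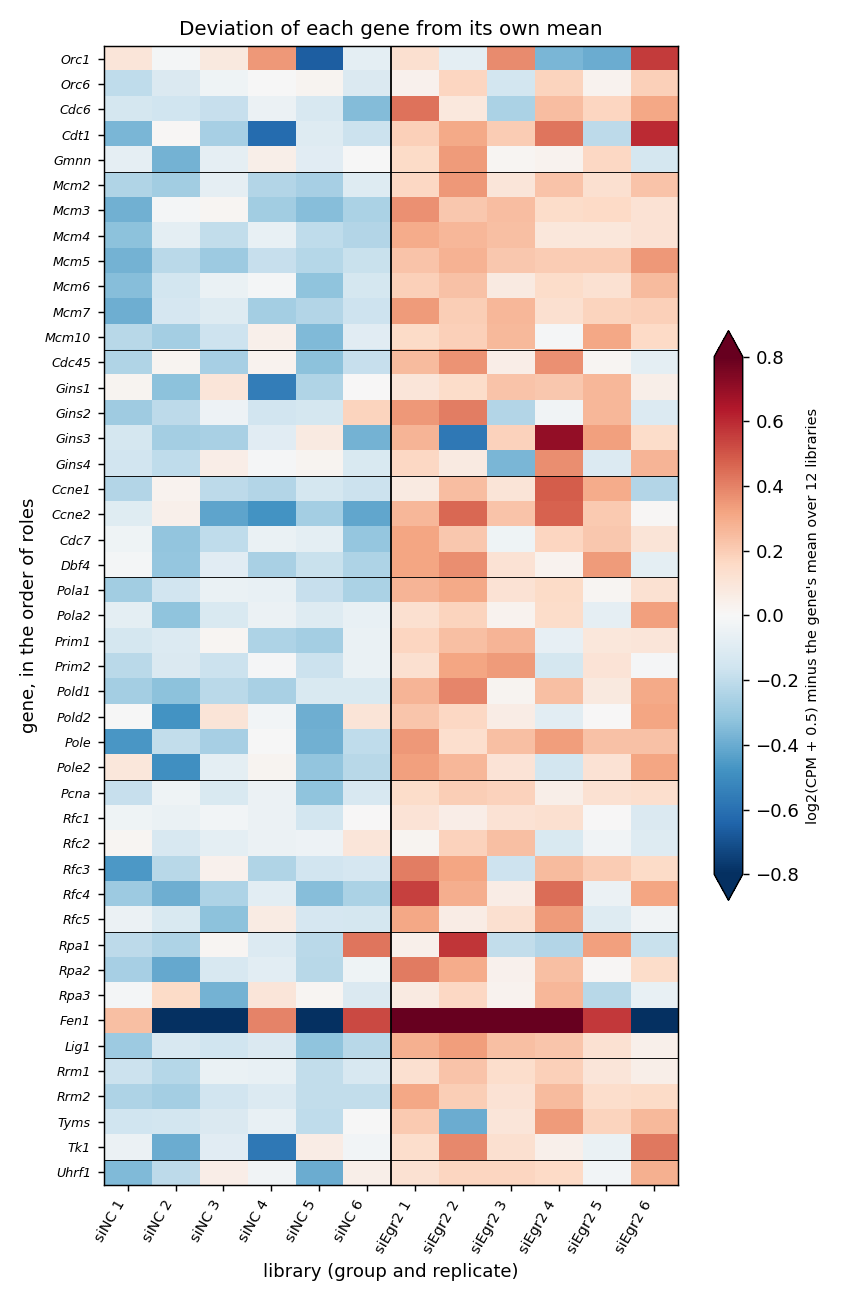
Level of each of the 45 replication genes in each library, as log2 of TMM-scaled CPM plus 0.5, minus the mean of the gene over the 12 libraries, with genes ordered by role and red above the mean. The median over the 45 genes lies between -0.20 and -0.057 in the siNC libraries and between 0.12 and 0.24 in the siEgr2 libraries.

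Members were also read by their level. Among the 22 genes of higher level, 17 rose, with a median log2 fold change of 0.35 and a median SE of 0.067. Among the 23 genes of lower level, 12 rose, with a median log2 fold change of 0.34 and a median SE of 0.11. The difference between these counts was not tested. Both level classes had about the same median, and the SE was larger in the class with fewer counts, where the smallest siEgr2 count of a gene was 13.

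Of the 29 genes that rose, 22 stayed past the adjusted p whichever of the 12 libraries was left out, with edgeR's quasi-likelihood test in each case. The other 7 were near the threshold and reached adjusted p-values of 0.0569 (Prim1), 0.0635 (Pola2), 0.0696 (Cdc45), 0.0707 (Cdc6), 0.0835 (Ccne1), 0.0958 (Prim2) and 0.109 (Tk1) at their highest. Prim1 was lost only without siEgr2 replicate 3, Pola2 without siNC replicate 2 or siEgr2 replicates 2, 4 or 6, and Cdc6 without siNC replicate 6 or siEgr2 replicates 1, 4 or 6. Cdc45 and Ccne1 were lost in 7 of the 12 cases each, Prim2 in 8 and Tk1 in 10. In the other direction, Gins1, Gins3, Pole2, Rfc5 and Tyms each passed once when a single library was left out.

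Other genes that act beside the fork were read from lists written from textbook knowledge, beside the 8.57% of all genes that rose and the 2.63% called higher. Of 41 accessory genes of replication, 16 rose and none fell, with a median log2 fold change of 0.23, below the 0.34 of the 45 genes. The 4 called genes of this list were Clspn (0.50) and Timeless (0.64), which keep the fork coupled, Wdhd1 (0.57), a scaffold of polymerase alpha at the fork, and the nuclease and helicase gene Dna2 (0.62). Of 17 checkpoint genes 3 rose, and the repair gene Brca1 (0.55) was among those called. Of 11 genes of replication-coupled chromatin assembly 7 rose, with the histone chaperone gene Asf1b (0.62) called. All 20 mitotic genes rose, 18 of them without overlap, with a median of 0.44, and the called genes were the kinase genes Aurkb (0.69), Cdk1 (0.57) and Bub1 (0.55) and the kinetochore motor gene Cenpe (0.53). The rise therefore also covered genes that act after S phase, and a difference between these lists was not tested.

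Of 29 regulators of the G1 to S transition, the E2F, RB and DREAM list, 8 rose and 2 fell, with a median of 0.16. The 1 gene called higher and the 2 called lower are to be read against the 2.63% and 5.08% of all genes. E2f7, an E2F factor that represses S phase genes, was called higher (0.62, adjusted p = 2.89e-05), while Ccnd2, which encodes cyclin D2, and its kinase partner Cdk6 were called lower (-0.79, adjusted p = 1.1e-05, and -0.76, adjusted p = 0.00258). Under scaling by the library total alone, 3 genes over all these lists were called, 1 higher and 2 lower, against 12 higher and 2 lower on the TMM scale.

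The summed markers of OL precursors, of astrocytes and of proliferation did not overlap between the groups, and the astrocyte sum was lower in siEgr2. The marker lists were chosen with earlier results of these data known, so their p-values add no independent support. Summed over 6 markers of OL precursors, the level was 2579 to 2791 CPM in siNC and 3142 to 3342 CPM in siEgr2 (exact permutation test, p = 0.00216), and 4 of the 6 rose, among them the called genes Pdgfra (0.56), the receptor of PDGF-AA, Cspg4 (0.56) and Pcdh15 (0.70). Summed over 8 astrocyte markers it was 8119 to 8814 CPM in siNC and 5206 to 5870 CPM in siEgr2 (p = 0.00216 in the exact permutation test), where 6 fell, with Slc1a3 (-0.85) and Aqp4 (-0.80) the lowest. The proliferation markers Mki67 and Top2a rose by 0.38 and 0.39, with sums of 544 to 633 CPM and 730 to 803 CPM. Neuronal markers (395 to 652 and 389 to 626 CPM, exact p = 0.524), microglial markers (3.23 to 6.08 and 1.95 to 5.63 CPM, with Aif1 at 0 in all libraries, exact p = 0.864), endothelial markers (3.38 to 5.41 and 1.68 to 7.04 CPM, with Cldn5 at 0, exact p = 0.372) and markers of fibroblasts and pericytes (590 to 1006 and 597 to 740 CPM, exact p = 0.0519) had sums that overlapped between the groups. Single markers among them still fell, with Rgs5 (-0.78) and Pdgfrb (-0.56) called among the 3 of 6 fibroblast and pericyte markers that fell, and the endothelial marker Flt1 (-1.35) called. Of the neuronal markers 1 rose and 1 fell, and of the 9 OL markers 3 rose and 2 fell, beside the 8.57% and 11.3% of all genes. The part of a different mix of cells in the rise of the replication genes was not tested.

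The called genes lie on 4 different chromosomes, as annotated by GENCODE M21 on GRCm38. Cdt1 spans chr8:122568015-122573554 on the plus strand, Ccne2 chr4:11191351-11204779 on the plus strand, Pole chr5:110286306-110337474 on the plus strand and Rfc4 chr16:23113943-23127737 on the minus strand. Ccne2 shares bases with Ints8 and Rfc4 with Eif4a2, each on the other strand, and Cdt1 lies within the longer gene Gm20388 on its own strand. Ints8 had means of 63.2 and 60.7 CPM and Eif4a2 of 151.6 and 158.1 CPM in siNC and siEgr2. Reads of these pairs could not be told apart.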

How the data were processed

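RNA was sequenced in 12 libraries of primary mouse OLs, 6 of siNC and 6 of siEgr2, mapped to groups by their titles, and no column of the table was left unused (0). The authors extracted total RNA with TRIzol and deposited raw counts per gene symbol without normalization. The submitters' processing notes name the build mm10, and the aligner, counter and strand setting are not given in the sources used here. Depth on genes ranged from 8034251 to 39383014 counts per library, which limits the precision of genes with few counts. No library was a copy of another, with a chi-square per gene of 7.56 to 39.8 over 30 pairs within groups, where sampling noise gives about 1.

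Counts were compared in R 4.3.3 with edgeR 4.0.16 (filterByExpr, TMM, robust quasi-likelihood test without covariates, Benjamini-Hochberg over 16600 genes). A call needed a log2 fold change over 0.5 in size beside an adjusted p under 0.05, the thresholds of the study. The biological coefficient of variation was 0.17. On simulated counts for 16341 genes, 200 changed by 1 on the log2 scale, the procedure recovered 179 (89.5%), and 5 calls (2.72%) were false. The 200 were drawn from genes with higher counts, and the group difference in Rn18s-rs5 was not simulated. All 45 replication genes changed by less than 1, so these rates do not apply to their changes. Sums and shares per library used two-sided exact permutation tests over 924 assignments. Levels per kilobase divide CPM by the exon length of GENCODE M21. Promoters are RefSeq sequences on GRCm38.p6.

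Values per group were given for the called genes and, in each role, for the members with the largest and the smallest change, and for further members after their values were seen. The members, the lists and the tests were chosen with earlier results of these data known. The alternatives comprised scaling by RLE, by the upper quartile or by the library total, other filters and thresholds, DESeq2 1.42.0, limma-voom (limma 3.58.1), a replicate block, thinning to the smallest library, leaving out structural RNA genes and leaving out each library. In the check of the replicate numbers, deviations of libraries with the same number correlated at -0.0388 to 0.0422. The authors' measurements other than RNA-seq were not analysed here. Not every called gene of the other lists is reported here.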

Additional observations from a re-analysis of the deposited data

Results flagged for a closer look

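Over the 45 genes and both groups, 90 sets of 6 libraries were examined for a highest or lowest library whose gap to the nearest other was unusually large for their range (Dixon's test at the 95% level), and 5 stood apart, where chance alone gives about 1 in 20 sets, or 4.5. In siEgr2, replicate 6 had 7.41 CPM of Fen1, against 33.8 to 45.5 CPM in the other 5 libraries. In siNC, replicate 6 had 99.2 CPM of Rpa1, against 61.9 to 74.2 CPM in the others. The other 3 were all siNC replicate 2, with 8.43 CPM of Gmnn (10.4 to 11.5 CPM in the others), 16.95 CPM of Ccne1 (14.05 to 15.02 CPM) and 20.98 CPM of Pola2 (24.2 to 25.5 CPM).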

How the results depend on the processing

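With libraries scaled by their total alone, 0 of the 45 genes were called, 12 passed the adjusted p, all of them higher and all among the 29, and the median log2 fold change was 0.15. The 12 were Cdt1, Mcm2, Mcm3, Mcm4, Mcm5, Mcm7, Ccne2, Pold1, Pole, Rfc4, Lig1 and Rrm2. That setting gave negative log2 fold changes for Orc1 (-0.069), Orc6 (-0.028), Gins4 (-0.031), Rfc1 (-0.080), Rfc2 (-0.11), Rpa1 (-0.058) and Rpa3 (-0.098). It called 1974 of all genes (237 higher and 1737 lower, 88.0% lower) against 1281 on the TMM scale (437 and 844, 65.9% lower), and 3 genes of the other lists (1 higher). Egr2 was called there as well (-0.70). Leaving out single libraries moved Orc1 between -0.019 and 0.22 (below 0 without siNC replicate 5, -0.0051, or siEgr2 replicate 6) and Rpa1 between -0.0029 and 0.24 (below 0 without siEgr2 replicate 2). Without a filter on low counts 2 genes were called (2 higher). At the adjusted p alone 29 were called (29 higher), with 3300 of all genes (1423 and 1877) and 56 of the other lists (54 higher). At a log2 fold change over 1, 0 of the 45 genes were called (0 higher) and 0 of the other lists (0 higher, 0 lower), with 373 of all genes (177 and 196). Leaving out each library in turn gave 3 to 5 called genes, 25 to 28 past the adjusted p and medians of 0.32 to 0.36, and the other lists had 12 to 18 called. In DESeq2, 30 of the 45 genes passed the adjusted p, all of them higher, where 10.7% of all genes tested rose.

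Cdt1 and Pole lost their call in 5 and 6 of 22 alternatives, Rfc4 and Ccne2 in 1 each, and Mcm5 gained one in 8. Gins1 gained a call when libraries were thinned (log2 fold change 0.51), and Gins3 when siEgr2 replicate 2 was left out (0.54). The replicate numbers did not pair the libraries (r of -0.0388 to 0.0422 between libraries of the same number, and 4 of 12 libraries matched their own number best). In a fit with the replicate block, 23 genes passed the adjusted p, all among the 29, without Cdc6, Ccne1, Pola2, Prim2, Rfc3 and Tk1 (adjusted p of 0.0548 to 0.0952), the median was 0.34 and 1124 genes were called. In that fit 6.9% of all genes tested rose. With every library thinned to 8034251 counts, 25 passed the adjusted p, 23 of them among the 29, where 7.94% of all genes tested rose. The lowest siEgr2 library held 13 to 98 counts of Orc1, Gmnn, Gins1, Gins3, Pole2, Rpa3 and Fen1, which limits the precision there. The causes of these differences were not tested.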
